A study of Homo sapiens with 8 samples.

Results

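The genes for the polypyrimidine tract binding proteins, PTBP1, PTBP2 and PTBP3, were examined in an eCLIP experiment on RBFOX2. Their members in the data are the deposited peaks whose midpoint lay in the RefSeq span of one of the 3 genes, on the strand of that gene. This gave 503 of the 1118316 peaks in 4 lists, of which 96 lay in PTBP1, 313 in PTBP2 and 94 in PTBP3. The choice used position only, and no fold or p-value.

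All samples came from HEK293T, an established human embryonic kidney cell line, with no genetic change or drug named in the labels. Cells were crosslinked with ultraviolet light at 254 nm and 400 mJ per square centimetre, which fixes proteins to the RNA they touch, and RBFOX2 was then immunoprecipitated (IP) with an antibody. The series holds 4 IP libraries aimed at RBFOX2 and 4 input libraries with no target, each input being 2% of the sample that gave the IP of the same number. The labels do not say whether the 4 numbers are separate cultures, so the spread given here is between these samples and may be technical.

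RBFOX2 is a splicing regulator that recognises a short RNA motif, mostly in introns beside alternative exons. The PTB proteins bind pyrimidine-rich RNA and mostly repress exons. PTBP1 is the widely expressed member, PTBP2 the form that replaces it in neurons, and PTBP3 a further member known from blood cells. The family is known for control of its own level through splicing: PTBP1 causes skipping of an exon in PTBP2 RNA and of one in its own RNA, and the skipped forms are degraded by nonsense-mediated decay. RBFOX2 has been placed in this network as a regulator of PTBP2 splicing.

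Each list gives every peak a log2 fold of IP over its paired input and a −log10 p, both computed by the authors. The lists hold between 267691 and 288305 called peaks, meaning peaks that are listed at all, and most of them are not enriched. Read counts were not used here, and without them the depth behind a single fold is not known and its counting error cannot be given. A peak was called enriched when its log2 fold was at least 3 (8-fold) and its −log10 p at least 3, which 0.861%, 0.848%, 0.789% and 0.775% of called peaks reached in replicates 1 to 4.

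PTBP1 and PTBP2 RNA carried peaks enriched with RBFOX2, and PTBP3 RNA carried none. PTBP1 had 3, 7, 5 and 6 enriched peaks in replicates 1 to 4 among 26, 24, 26 and 20 called peaks, a mean of 5.25 ± 1.71 enriched (SD, n = 4). PTBP2 had 2, 3, 2 and 1 among 82, 71, 80 and 80 called peaks, a mean of 2 ± 0.816 enriched (SD, n = 4). PTBP1 thus had more enriched peaks than PTBP2 in 4 of 4 lists, from fewer called peaks. Over the lists together, 21.9% of the PTBP1 peaks and 2.56% of the PTBP2 peaks were enriched, against 0.818% of all called peaks. PTBP3 had 0 enriched peaks among 18, 22, 24 and 30 called peaks. If the 94 peaks were independent, a count of 0 would allow a share of up to 3.19%, which lies above the share of all called peaks. That limit covers counting error only. Some sites were called in several lists, so the peaks are not independent and the limit is too tight. The highest PTBP3 log2 fold was 1.58, 2.00, 2.00 and 2.58 in replicates 1 to 4, and its highest −log10 p was 0.903, so every PTBP3 peak was below both limits.

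**Figure D1:**
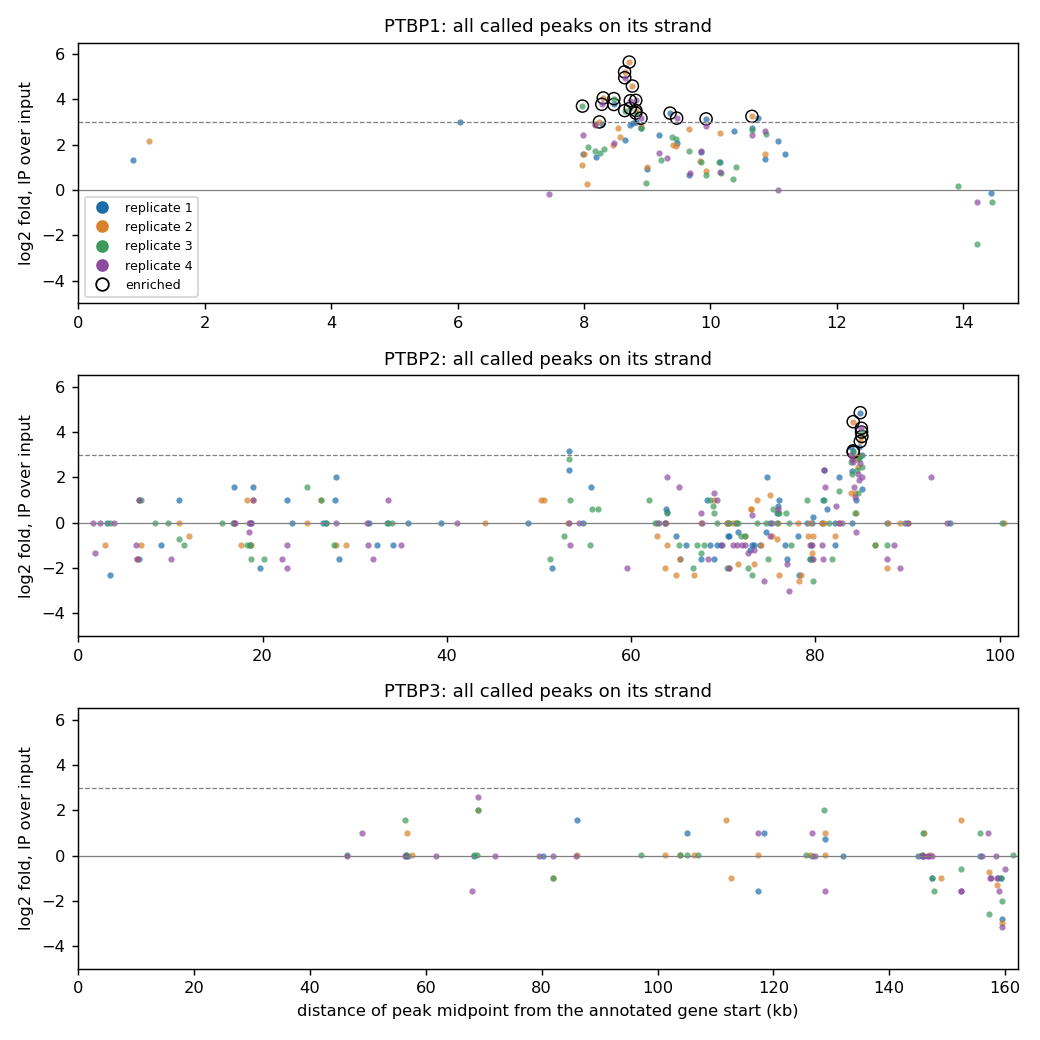
Log2 fold of IP over input (y axis) of every called peak against the distance of its midpoint from the annotated gene start in kb (x axis), for PTBP1, PTBP2 and PTBP3. Colours are the 4 replicates, black rings mark enriched peaks, the dashed line is a log2 fold of 3, and the 21 ringed PTBP1 peaks and 8 ringed PTBP2 peaks each sit in one stretch of the gene.

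The fold of the whole set of called peaks separated PTBP1 from the other members. A 2-fold or larger excess over input (a log2 fold of at least 0.99, since each list is offset slightly from 0) was found in 88.5%, 91.7%, 73.1% and 75.0% of PTBP1 peaks in replicates 1 to 4, a mean of 82.1% ± 9.38 (SD, n = 4). In PTBP2 the share was 29.3%, 23.9%, 25.0% and 25.0%, a mean of 25.8% ± 2.36 (SD, n = 4). In PTBP3 it was 16.7%, 27.3%, 20.8% and 16.7%, a mean of 20.4% ± 5.01 (SD, n = 4). Among all called peaks the share was 28.9%, 27.5%, 25.9% and 27.3%, or 27.4% of the lists together. This share takes no account of the −log10 p, which was 0 for some of the counted PTBP2 and PTBP3 peaks. The PTBP1 values did not overlap with those of either other gene, while the PTBP2 and PTBP3 values overlapped with each other.

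PTBP1 exceeded PTBP2 by 56.2 ± 9.06 percentage points and PTBP3 by 61.7 ± 8.37 (SD, n = 4 for both), with the difference positive in 4 of 4 replicates. In an exact two-sided sign-flip permutation, 2 of the 16 sign assignments were as extreme for each pair, the fewest that 4 replicates allow, and p was 0.188 after Benjamini-Hochberg adjustment over the 3 pairs of genes. PTBP2 exceeded PTBP3 by 5.44 ± 6.79 percentage points, in 3 of 4 replicates, with single differences from −3.33 to 12.6 (exact permutation p = 0.25, adjusted p = 0.25). That difference is within its spread. The mean log2 fold over all peaks of a gene was 2.15 ± 0.36 for PTBP1, 0.03 ± 0.13 for PTBP2 and −0.13 ± 0.12 for PTBP3, against 0.17 ± 0.03 for all called peaks (SD, n = 4 for each).

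Set beside other genes, the PTBP1 share ranked 64th of the 6001 genes with 40 or more called peaks, so 1.05% of them had a higher share. PTBP2 ranked 2427 and PTBP3 ranked 3697. The median gene had 22.99% of its peaks at 2-fold or more. Peaks were also denser in PTBP1, with 1.61 called peaks per kb of span and list, against 0.767 in PTBP2 and 0.145 in PTBP3. The span used enters this value. In PTBP3 the called peak nearest the annotated start ended at 112333516, while the span runs to 112379882. A peak is listed where the library holds reads, so the density also depends on how much of the RNA was present, which was not measured here.

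**Figure D2:**
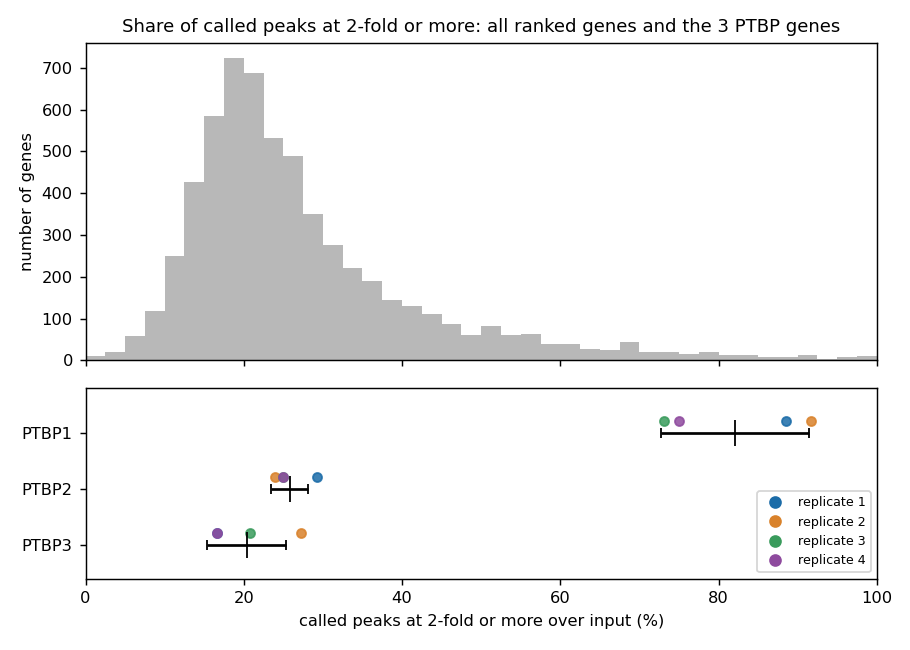
The upper panel is a histogram of the share of called peaks at 2-fold or more (x axis, %, mean of 4 lists) over the 6001 ranked genes (y axis, number of genes), and the lower panel gives the same share for the 3 PTBP genes, with dots for replicates and a bar for mean ± SD. PTBP1 lies at 73.1% to 91.7%, in the right tail, and PTBP2 and PTBP3 lie among most genes; dots of replicates 3 and 4 coincide in PTBP2, and those of 1 and 4 in PTBP3.

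The genes most like PTBP1 in this share were MIB2 at 82.7% ± 12.7, DVL1 at 81.1% ± 7.24 and ABCA2 at 80.6% ± 8.24 (SD, n = 4 for each). They were the nearest of 637 genes whose number of called peaks was within 10% of that of PTBP1. Their enriched peaks numbered 6, 4 and 10, against 21 in PTBP1. Regions enriched in at least 3 replicates numbered 1, 0 and 1, against 1 in PTBP1, and the one in ABCA2 was enriched in all 4. By the limma test described further on, 11 of 15, 6 of 10 and 6 of 9 tested regions were above 0, against 9 of 11 in PTBP1.

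In PTBP1 the enriched peaks fell in one part of the gene. The span of PTBP1 runs from 797452 to 812312 on chromosome 19, plus strand, 14861 nt in all. The 21 enriched peaks lay between 805383 and 808157, a stretch of 2775 nt that begins 7931 nt after the annotated start and ends 4155 nt before the annotated end. The stretch covers 18.7% of the span and held 79 of the 96 called peaks. Of these 79, 69 were at 2-fold or more, and of the 17 outside it 10 were. The bounds were set by the enriched peaks themselves, so the contrast is a description. No called peak overlapped the short windows at the annotated starts of any of the 3 genes, and none overlapped the microRNA gene MIR4745 (804940 to 805001) inside PTBP1. No peak lay on the other strand of any of the 3 spans.

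Merging overlapping enriched peaks gave 8 regions in PTBP1, of which 5 were enriched in 1 replicate, 2 in 2 and 1 in 3. The region from 806053 to 806395 was the one with 3 replicates and held 11 enriched peaks. Its highest log2 fold was 2.999, 5.65, 3.61 and 4.95 in replicates 1 to 4, and its highest −log10 p was 9.99, 13.6, 10.9 and 10.2. Replicate 1 was the one not counted, because 2.999 falls just short of the limit. With the limit lowered by 0.01, a choice made after seeing the data, the region was enriched in all 4 replicates, as 16.4% of all merged enriched regions were at the main limit. The peaks there stood in a row. In replicate 2 they began at 806057, 806133, 806205, 806233 and 806315, with log2 folds of 5.21, 5.65, 4.59, 3.50 and 2.81. In the same 5′ to 3′ order the log2 folds were 4.95, 3.94, 3.95 and 3.17 in replicate 4, 3.50, 3.61, 3.39 and 2.76 in replicate 3, and 2.19, 2.87, 2.94, 2.999 and 2.72 in replicate 1. The peak at the 3′ side was the lowest in replicates 2, 3 and 4, and the peak at the 5′ side was the lowest in replicate 1.

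The regions just 5′ of it were enriched in different replicates. The region from 805670 to 805799 reached the limits in replicates 2 and 4, with highest log2 folds of 2.91, 4.06, 1.79 and 3.78 in replicates 1 to 4. The next region, from 805812 to 806039, reached them in replicates 1 and 3, with 3.77, 2.74, 4.03 and 2.06. Replicates 2 and 4 were the high pair in the former, and replicates 1 and 3 in the latter, 12 nt away. The mean log2 fold of all called peaks from 805579 to 806039, which covers both regions, weighted by peak length, was 3.11, 2.82, 2.84 and 2.76 (mean 2.88 ± 0.15, SD, n = 4). The joined stretch was chosen after its values were seen.

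The other 5 PTBP1 regions were enriched in 1 replicate each. Among them, the region from 808062 to 808157 was the most even, with highest log2 folds of 2.74, 3.25, 2.63 and 2.43 (mean 2.76 ± 0.35, SD, n = 4) and a −log10 p of at least 3.31 in every replicate. It missed the fold limit in the other 3 replicates. The region from 807338 to 807430 was the least even, with 3.14, 0.82, 0.66 and 2.81, high in replicates 1 and 4 and low in replicates 2 and 3.

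**Figure D3:**
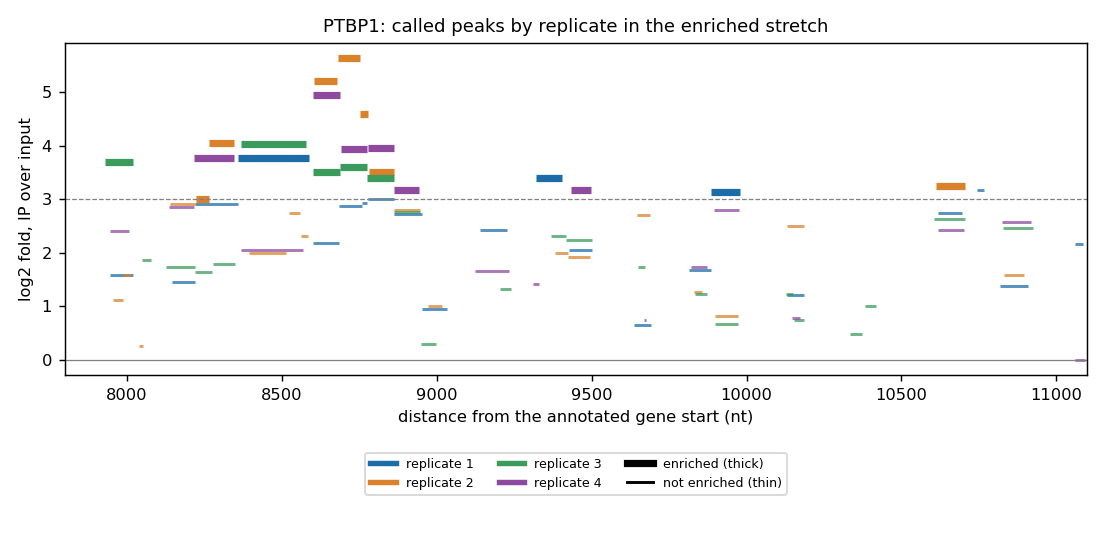
Called peaks of PTBP1 as horizontal bars from peak start to end (x axis, distance from the annotated gene start in nt) at their log2 fold of IP over input (y axis), coloured by replicate, with thick bars for enriched peaks. In the region that begins 8601 nt from the start, log2 folds reach 5.65 in replicate 2 and 4.95 in replicate 4. Replicates 1 and 3 are highest in the region just before it, at 3.77 and 4.03. The bars further towards the 3′ end reach at most 3.39.

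PTBP2 is the longer gene, with a span of 101956 nt on chromosome 1 (96721784 to 96823739, plus strand), and its enriched peaks also stood close together. All 8 enriched peaks lay between 96805854 and 96806901, a stretch of 1048 nt or 1.03% of the span, 84070 nt after the annotated start. Within this stretch 29 of 32 called peaks were at 2-fold or more, and outside it 52 of 281 were. As for PTBP1, the bounds came from the enriched peaks, so this is a description.

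The enriched peaks of PTBP2 merged into 3 regions, with 3, 2 and 3 replicates. The region from 96805854 to 96805938 had, in replicates 1 to 4, log2 folds of 3.17, 4.46, 3.12 and 2.66 (mean 3.35 ± 0.77, SD, n = 4), with replicate 4 below the fold limit. The region from 96806604 to 96806710 had 4.86, 3.59, 2.94 and 2.63 (mean 3.50 ± 0.99, SD, n = 4), with replicates 3 and 4 below the limit although their −log10 p was 4.31 and 4.51. The region from 96806739 to 96806901 had 2.999, 3.81, 4.00 and 4.17 (mean 3.74 ± 0.52, SD, n = 4), with a −log10 p of 1.41, 3.29, 3.84 and 4.12, so replicate 1 missed both limits. The first region was separated from the second by 665 nt, and the second from the third by 28 nt. No single base of either gene lay under enriched peaks of all 4 replicates, while 258 bases of PTBP1 and 122 of PTBP2 did so for at least 3. For PTBP1 this absence rests on the exact fold limit. The replicate 1 peak from 806230 to 806315, at 2.999 with a −log10 p of 8.83, overlapped enriched peaks of replicates 2, 3 and 4.

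**Figure D4:**
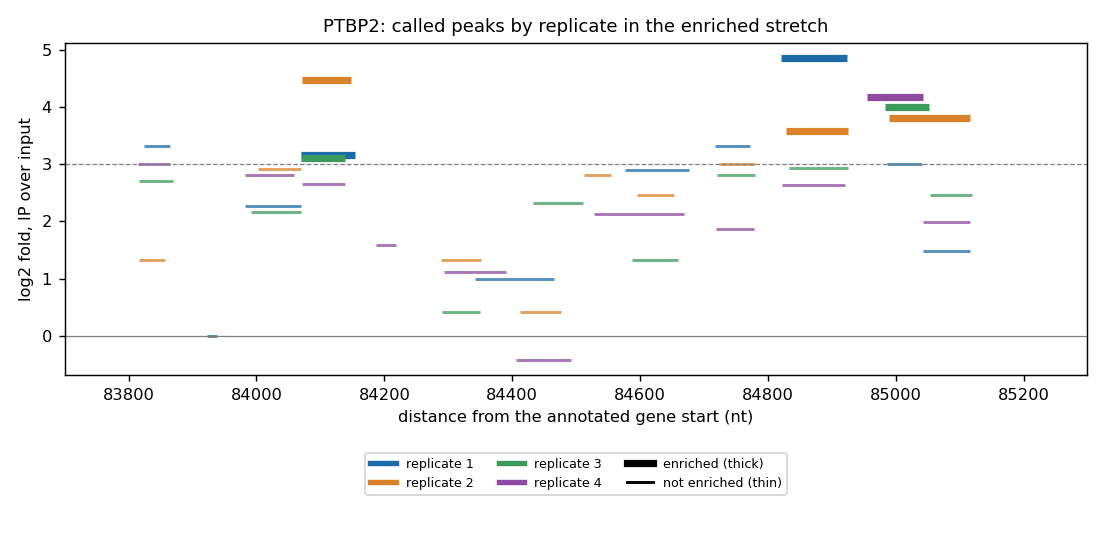
Called peaks of PTBP2 as horizontal bars from peak start to end (x axis, distance from the annotated gene start in nt) at their log2 fold of IP over input (y axis), coloured by replicate, with thick bars for enriched peaks. Enriched bars stand at both ends of the stretch, with log2 folds up to 4.46 on the left and 4.86 on the right. Only thin bars lie in between, with log2 folds up to 3.32.

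In all, 3 member regions were enriched in at least 3 replicates, 1 in PTBP1 and 2 in PTBP2. Of the 3371 merged enriched regions of the series, 27.0% were, against 3 of 11 here, a share near the background. Of the genes with 40 or more called peaks, 5.18% had such a region. The count of 3 depended on the libraries. With 1 library left out, and all 3 others required, it was 2 without replicate 1, 0 without replicate 2, 0 without replicate 3 and 1 without replicate 4.

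Whether the fold was above 0 relative to the spread between replicates was tested with limma, a linear model that shares information on the spread between features. It was fitted to all 49493 regions of merged called peaks with a peak in every list, with Benjamini-Hochberg adjustment over all of them. Where a replicate had several peaks in a region, the one with the best p-value gave its fold. Member peaks below input all had a −log10 p of 0, so this choice favours higher folds in regions with several peaks. The same rule was used for all regions. Of the 25 merged regions in PTBP1, 11 could be tested, as could 19 of 174 in PTBP2 and 2 of 64 in PTBP3. The mean log2 fold was above 0 in 9 of the 11 PTBP1 regions, 7 of the 19 PTBP2 regions and 0 of the 2 PTBP3 regions (limma adjusted p of at most 0.05), where 21.1% of all regions passed. The median of the mean log2 fold was 2.32 in PTBP1, 0.85 in PTBP2, −1.10 over the 2 regions of PTBP3 and 0.50 over all regions.

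All 11 tested PTBP1 regions had a mean above 0. Those 9 that passed had means from 1.43 to 4.02, with limma adjusted p-values from 0.0051 to 0.0456. The highest mean was that of the region from 806053 to 806484, at 4.02 ± 1.17 (SD, n = 4, limma adjusted p = 0.00826). The regions from 805579 to 805811 and from 805812 to 806039 had means of 3.13 and 2.97 (limma adjusted p = 0.0109 and 0.0141). The regions that did not pass ran from 807088 to 807143, with log2 folds of 0.65, 2.702, 1.74 and 0.74, and from 807338 to 807430 (limma adjusted p = 0.0717 and 0.0696). In the former, replicates 2 and 3 were the high ones, and in the latter replicates 1 and 4.

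The 7 PTBP2 regions that passed followed one another without a gap among the tested regions, from 96805599 to 96806904, and were the last 7 of the 19 in 5′ to 3′ order. Their means rose and fell along the gene: 2.59, 3.35, 1.44, 2.21, 2.75, 3.50 and 3.74. The last of them had the lowest limma adjusted p of the 3 genes, 0.00445, in the region from 96806739 to 96806904. The 12 regions 5′ of this stretch had means from −1.15 to 1.49 and none passed. One of them, from 96774848 to 96775059, had log2 folds of 3.17 and 2.81 in replicates 1 and 3 and of 0.00 in replicates 2 and 4, so its replicates fell into separate pairs (limma adjusted p = 0.194).

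A −log10 p of at least 3 in all 4 replicates, with no limit on the fold, was found in 4 of the 11 PTBP1 regions and 2 of the 19 PTBP2 regions, and in 1.86% of all regions. In PTBP3, the region from 112250932 to 112251101 on chromosome 9, minus strand, had the higher mean of the pair, with log2 folds of 0.74, 1.00, 2.00 and −1.59 (mean 0.54 ± 1.52, SD, n = 4, limma adjusted p = 0.575). The other PTBP3 region, from 112220324 to 112220380, was below input in every replicate, at −2.81, −2.999, −1.999 and −3.17 (mean −2.74 ± 0.52, SD, n = 4). It was the only member region that passed below 0 (limma adjusted p = 0.00628), where 1.81% of all regions did. It lies within 3 kb of the 3′ end of the PTBP3 span (112217715 to 112379882, 162168 nt), where 7 of the 8 called peaks had a log2 fold below 0. Of these 8, 4 are the peaks of this region itself, and another site was repeated between lists. In the last 3 kb of PTBP1, 4 of 5 called peaks were below 0, with a median log2 fold of −0.52. In the last 3 kb of PTBP2, 0 of 2 were. Sites were repeated between lists in PTBP1 too, so these counts are not of independent sites and are a description. Of all called peaks, at any position in a gene, 25.0% ± 0.526 (SD, n = 4) had a log2 fold below 0.

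The number of calls needed all 4 replicates. Without replicate 1 and without replicate 4, 0 of 40 and 0 of 38 tested member regions passed. Of these, 19 and 18 were above 0 at an unadjusted limma p under 0.05. Over the whole series, 0 of 64176 and 0 of 63168 regions passed above 0 in these fits. Without replicate 2, 3 of 41 member regions passed above 0, and 1271 of all 62378. Without replicate 3 it was 4 of 40, and 2470 of all 62794. In those fits the smallest adjusted p over all regions lay between 0.0484 and 0.0507. Tested against a log2 fold of 1 in place of 0, 8 of the 32 tested member regions passed on the higher side, 4 in each of PTBP1 and PTBP2. Of all 49493 regions, 2770 did.

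**Figure D5:**
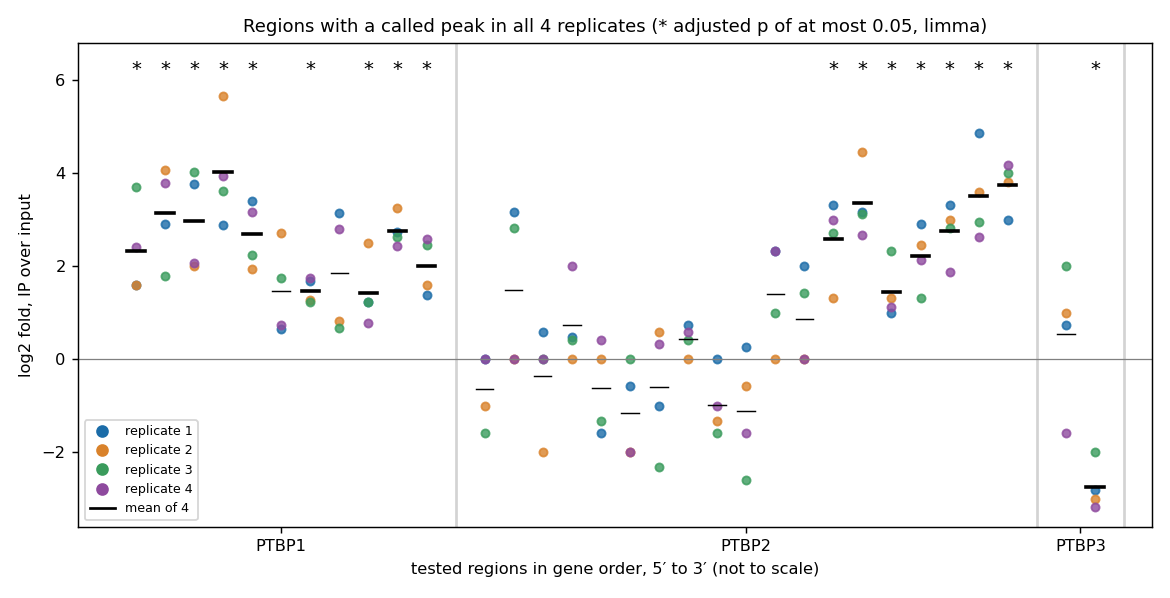
Log2 fold of IP over input (y axis) in each replicate (coloured dots) and its mean (black bar, thick where called) for the 32 tested regions of PTBP1, PTBP2 and PTBP3 in 5′ to 3′ order (x axis, not to scale). Stars mark 9 regions of PTBP1 and the last 7 of PTBP2, above 0, and 1 region of PTBP3, below 0.

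For the surroundings of these genes in the splicing network, 20 genes were listed whose proteins bind pyrimidine-rich RNA or work with PTB proteins. The strand of 17 was known here, and 16 of these had a called peak. An enriched peak was found in 6, and a region enriched in at least 3 replicates in 2, U2AF2 and FUBP3, while 2.86% of all genes with a called peak had such a region. Of the 13 listed genes with 40 or more called peaks, 5 had an enriched peak, against 14.1% of all genes with as many, and 2 had a region enriched in at least 3 replicates, against 5.18%. At counts this small, nothing is read from these shares. U2AF2, the large subunit of the factor that reads the polypyrimidine tract at the 3′ splice site, held 4 regions enriched in at least 3 replicates. The strongest, on chromosome 19 from 55670415 to 55670556, plus strand, had highest log2 folds of 6.16, 6.23, 5.90 and 5.13 (mean 5.86 ± 0.51, SD, n = 4), above any PTBP1 or PTBP2 peak of the same list. FUBP3, a single-strand nucleic acid binding protein, held 2, the stronger on chromosome 9 from 130632401 to 130632784, plus strand, with 4.25, 4.70, 4.00 and 5.00 (mean 4.49 ± 0.45, SD, n = 4).

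Among the tested regions of these 17 genes, 37 of 169 (21.9%) were above 0, near the 21.1% of all regions, and 11 (6.51%) were below 0, against 1.81% (limma adjusted p of at most 0.05). U2AF2 and FUBP3 gave 10 and 11 of the higher regions. HNRNPC, which binds uridine tracts and was singled out after its values were seen, gave 6 of the lower ones, with 5.26% ± 1.34 (SD, n = 4) of its called peaks at 2-fold or more. The share at 2-fold or more ranged from 5.26% in HNRNPC to 65.0% in U2AF2, with a median of 23.7%, so each of the 16 was below the 82.1% of PTBP1. HNRNPL and HNRNPLL, which resemble the PTB proteins in structure, had 13.7% ± 8.04 and 20.5% ± 7.10 (SD, n = 4 for both) and no enriched peak.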

How the data were processed

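RBFOX2 eCLIP was measured in 4 IP and 4 input libraries of HEK293T cells. Per the submitters' processing notes, cutadapt 3.2, UMI-tools 1.1.1 and STAR 2.7.7a and the builds hg38 and GRCh38.p13 were used. Peak caller, test and scaling are not given in the sources used here. The deposited lists have no header. Their 4th column was read as −log10 of a p-value (never negative, up to 400) and their 5th as a log2 fold (IP against its own input), both computed by the authors. Peaks were called per replicate.

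Gene spans (RefSeq, GRCh38.p14) and the strand of the promoter table were used. Of 59792 genes, 27303 had a strand there. Exon positions and genome sequence were not used here, so no peak is placed in an exon or intron and no peak sequence is shown. Coordinates are 1-based.

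Peaks overlapping by at least 1 nt on a strand were merged. Python 3.11.15, pandas 2.3.3, R 4.3.3 and limma 3.58.1 (intercept-only fit, eBayes, two-sided) were used, and the fit and the merging were tested on simulated data or by a direct count. Regions were named if enriched in at least 2 replicates, or, in a gene without one, by the highest mean; of the listed partner genes, those with the most regions enriched in at least 3 replicates. The genes, lists and thresholds were chosen with earlier results of these data known.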

Additional observations from a re-analysis of the deposited data

How the results depend on the processing

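With a log2 fold of at least 1, the 3 genes held 13.5 enriched peaks per replicate against 7.25, 7 regions in at least 3 replicates against 3, and 5 partner genes with such a region against 2. A log2 fold of at least 4 gave 2.5 peaks and 0 regions. Asking for an overlap of 50% of the shorter peak split longer regions and gave 5. A −log10 p of at least 5, a −log10 p of at least 3.1 in replicates 2 and 3, any overlap with the span and a fold limit lowered by 0.01 (added after seeing the data) kept these counts within 1.5 times. With 1 replicate left out, the peaks per replicate ranged from 6.33 to 8, the regions in at least 3 replicates from 0 to 2, and the partner genes stayed at 2. The limma calls above 0 ranged from 0 to 4 against 16, and those over all regions from 0 to 2470 against 10424. Fewer samples enter those fits. Tested against a log2 fold of 1, 8 limma calls above 0 were left, and 2770 over all regions. Of 55 alternative values for the 7 named regions none changed sign, and 23 lost the call. This share understates the loss. The 7 values of the PTBP3 region had no call to lose. A setting that admitted regions by their best p-value passed 3339 of 3356, so it could hardly remove a call. Using the highest fold per region cannot lower its mean. Leaving out 1 replicate kept a named region's call only without replicate 3, in PTBP1 from 805579 to 805811 and PTBP2 from 96806739 to 96806904. The differences between genes kept their sign under the 8-fold share, the mean log2 fold and each replicate left out. Using both strands could change neither the member counts nor these differences, because no peak lay on the other strand of the 3 spans. No paired analysis was possible because IP and input have no separate values in the lists used. Depth per peak is unknown, and values near a limit are the most exposed to this.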

Other observations

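In several member regions a pair of replicates stood above the other pair, though not always the same pair. Any 4 unequal values have an upper and a lower pair, so nothing is read from this. Replicates 1 and 4 were above replicates 2 and 3 in the PTBP1 region from 807338 to 807430, replicates 2 and 3 above 1 and 4 in that from 807088 to 807143, and replicates 1 and 3 above 2 and 4 in the PTBP1 region from 805812 to 806039 and the PTBP2 region from 96774848 to 96775059. The median SD over the 4 replicates was 0.966 in the tested PTBP1 regions and 0.879 in those of PTBP2, against 0.820 for all regions. Weighted by peak length, the mean log2 fold over the whole enriched stretch was 2.52, 2.84, 2.44 and 2.87 in PTBP1 (mean 2.67 ± 0.22, SD, n = 4) and 2.76, 2.94, 2.47 and 2.00 in PTBP2 (mean 2.54 ± 0.41, SD, n = 4). On this measure, whose bounds were set by the enriched peaks, the stretches of both genes lay within each other's spread.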
